A study of Mus musculus with 12 samples.

Results

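The Gimap genes of the mouse encode GTPases of immunity-associated proteins, a family of small GTP-binding proteins found mainly in lymphocytes. They were taken here as the 8 symbols Gimap1, Gimap3, Gimap4, Gimap5, Gimap6, Gimap7, Gimap8 and Gimap9 among the probe sets that carry a single gene symbol, which makes 8 of 18193 genes on the array. Each gene's probe set was chosen by its mean over all 12 arrays, the highest being used, and that mean is the measured value the choice rests on. Total RNA of livers was measured on 12 arrays, 1 per mouse, in 4 groups of 3 BALB/c mice. The TGFB KO group lacked transforming growth factor beta 1 (Tgfb1), and the Balb/c WT group was its wild-type control. The IFNko TGFB1 KO group lacked both Tgfb1 and interferon gamma (Ifng). The INFko TGFB+ group, its control, lacked Ifng and carried Tgfb1, though how many Tgfb1 copies is not given. The series concerns acute autoimmune hepatitis, which Tgfb1 deficiency brings about in this strain, and mouse age is not given. Nothing states that mice of one group came from separate litters, so p-values measure only the spread between these mice.

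Members of the family bind GTP, sit on intracellular membranes and act in the survival and turnover of T and B cells. Loss of Gimap5 leaves mice and rats short of lymphocytes, and in mice it is followed by liver damage and colitis. Gimap3 and Gimap5, close paralogs, have been found to bind proteins of the Bcl2 family, which set the threshold for apoptosis. Several members have also been detected in endothelium, so a whole-liver signal may hold RNA of more than 1 cell type. In RNA of a whole organ, fewer cells of a type and less RNA per cell cannot be told apart.

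The 8 genes lie side by side on mouse chromosome 6, in the order Gimap8, Gimap9, Gimap4, Gimap6, Gimap7, Gimap1, Gimap5 and Gimap3, with 0 other genes of the array between them. RefSeq promoter windows (GRCm38.p6, 250 bases before to 50 after the gene's start) were found for all 8, Gimap8 having 2 that overlap. Of these, 3 are printed because their genes mark the range of the results below. In the comparisons of Tgfb1 loss, TGFB KO against Balb/c WT and IFNko TGFB1 KO against INFko TGFB+, Gimap7 was among the genes with large fold changes and Gimap4 had the smallest adjusted p-values of the family. Gimap9 passed no test in any comparison. Capitals mark matches, on either strand, to 6 short motifs: the Runx site TGTGGT, the Ets site GGAAGT, the gamma-activated site core TTCNNNGAA, the interferon-stimulated response element core (GAAA, any 2 bases, GAAA), the NF-kappa B core (GGG, any 5 bases, CC) and the Smad box CAGACA used by the transforming growth factor beta pathway. Neighbouring matches can overlap, as the NF-kappa B ones of Gimap4 do.
Gimap7 promoter, chr6:48718371-48718670, plus strand: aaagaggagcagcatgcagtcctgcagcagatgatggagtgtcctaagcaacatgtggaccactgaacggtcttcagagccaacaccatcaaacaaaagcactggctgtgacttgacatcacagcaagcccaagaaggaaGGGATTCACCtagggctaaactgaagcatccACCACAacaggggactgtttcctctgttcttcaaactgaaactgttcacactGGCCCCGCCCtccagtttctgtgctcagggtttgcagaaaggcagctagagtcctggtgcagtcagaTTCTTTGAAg
Gimap4 promoter, chr6:48684328-48684627, plus strand: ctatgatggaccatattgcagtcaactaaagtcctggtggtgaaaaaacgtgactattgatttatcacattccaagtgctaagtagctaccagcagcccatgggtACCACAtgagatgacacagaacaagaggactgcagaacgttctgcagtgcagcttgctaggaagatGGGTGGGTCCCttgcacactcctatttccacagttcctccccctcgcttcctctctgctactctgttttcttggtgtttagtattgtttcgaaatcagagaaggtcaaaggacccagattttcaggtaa
Gimap9 promoter, chr6:48675885-48676184, plus strand: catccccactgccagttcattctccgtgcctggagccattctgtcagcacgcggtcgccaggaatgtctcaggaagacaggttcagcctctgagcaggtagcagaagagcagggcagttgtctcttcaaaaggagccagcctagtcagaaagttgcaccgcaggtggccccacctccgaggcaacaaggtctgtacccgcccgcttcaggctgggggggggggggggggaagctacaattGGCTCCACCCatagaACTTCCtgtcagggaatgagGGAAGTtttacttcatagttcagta
The Gimap7 and Gimap4 windows each held a Runx match, at positions -79 and -145 from the start, while the Gimap9 window held 2 Ets matches just after it. The Runx and Ets matches did not track the fold changes over the family. A Runx match also lay in the window of Gimap1, which passed neither comparison of Tgfb1 loss. None lay in those of Gimap3 and Gimap6, which passed both. Ets matches also lay in the Gimap1, Gimap5 and Gimap6 windows. Over the 9 windows of the family, the Runx site occurred in 3, against 16.8% of the 32851 promoters searched, and the Ets site in 4, against 23.8%. The gamma-activated site core occurred in 4 of 9 windows, against 8.3% of all promoters, and the Smad box in 3, against 21%. The NF-kappa B core was found in 5 of 9, against 50.8% of all promoters. Both Gimap8 windows hold the same Smad box and the same NF-kappa B matches, so these counts are 2 and 4 of 8 genes. The interferon-stimulated response element core was found in 0 of 9, against 3.44%. These are letter matches in a window of 300 bases and say nothing of binding.

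The deposited values are linear signal intensities of 45101 probe sets. They were analysed as log2(signal + 16) after quantile normalization, and a fold change on this scale understates the change of a dim gene. All 8 genes passed the filter on dim probe sets, a mean log2 level of 5.25 over the 12 arrays, but Gimap5 passed it narrowly, at 5.28. One array differed from the rest: replicate 1 of IFNko TGFB1 KO had a median signal of 61.3 and rank correlations with the other arrays of 0.754 to 0.809. The other 11 arrays had medians of 33.8 to 42.6 and correlated with each other at 0.816 to 0.912. Tgfb1 signal was lower in all 3 TGFB KO livers, at 71.2, 87.6 and 45.5, against 391, 455 and 110 in Balb/c WT livers. It was 24.9, 52.1 and 43.8 in IFNko TGFB1 KO livers, against 221, 163 and 180 in INFko TGFB+ livers. Ifng signal was 83.9, 54.3 and 44.6 in IFNko TGFB1 KO livers and 7.56, 1.06 and 7.45 in INFko TGFB+ livers, both labelled as lacking the gene. The deleted part of Ifng and the position of its probes are not given, so this signal checks the label neither way. Hepatocyte markers, which define the tissue, summed to 94639 or more on every array.

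Gimap gene expression was raised in livers without Tgfb1, both with and without Ifng. In TGFB KO livers 5 of the 8 genes (Gimap3, Gimap4, Gimap5, Gimap6 and Gimap7) were higher than in Balb/c WT livers at a limma adjusted p under 0.05, and 0 were lower. Gimap5 is the least secure of these calls. It passed the filter on dim probe sets only through the arrays in which it was high. The count was also 5 of 8 with no filter (Gimap5 adjusted p = 0.0246). It was 4 of 7 where a stricter filter left Gimap5 out. Gimap7 had a mean log2 level under the filter level in Balb/c WT livers (5.15) and just over it in INFko TGFB+ livers (5.32). Its pass therefore also rested on the livers without Tgfb1, though it was called under all 15 alternatives in each comparison of Tgfb1 loss. Over all 12755 genes tested, 12.2% were higher and 11.9% lower in that comparison. In IFNko TGFB1 KO livers 5 of 8 (Gimap3, Gimap4, Gimap6, Gimap7 and Gimap8) were higher than in INFko TGFB+ livers and 0 were lower, where 12.7% of all genes were higher and 13.1% lower. The members' median log2 fold change was 1.03 in TGFB KO against Balb/c WT, where the median of all genes was -0.057. It was 1.54 in IFNko TGFB1 KO against INFko TGFB+, where all genes had a median of -0.0096. The 4 genes higher in both comparisons were Gimap3, Gimap4, Gimap6 and Gimap7. The 8 genes were chosen with earlier results of these data known, so the shares over all genes are given for scale only.

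**Figure D1:**
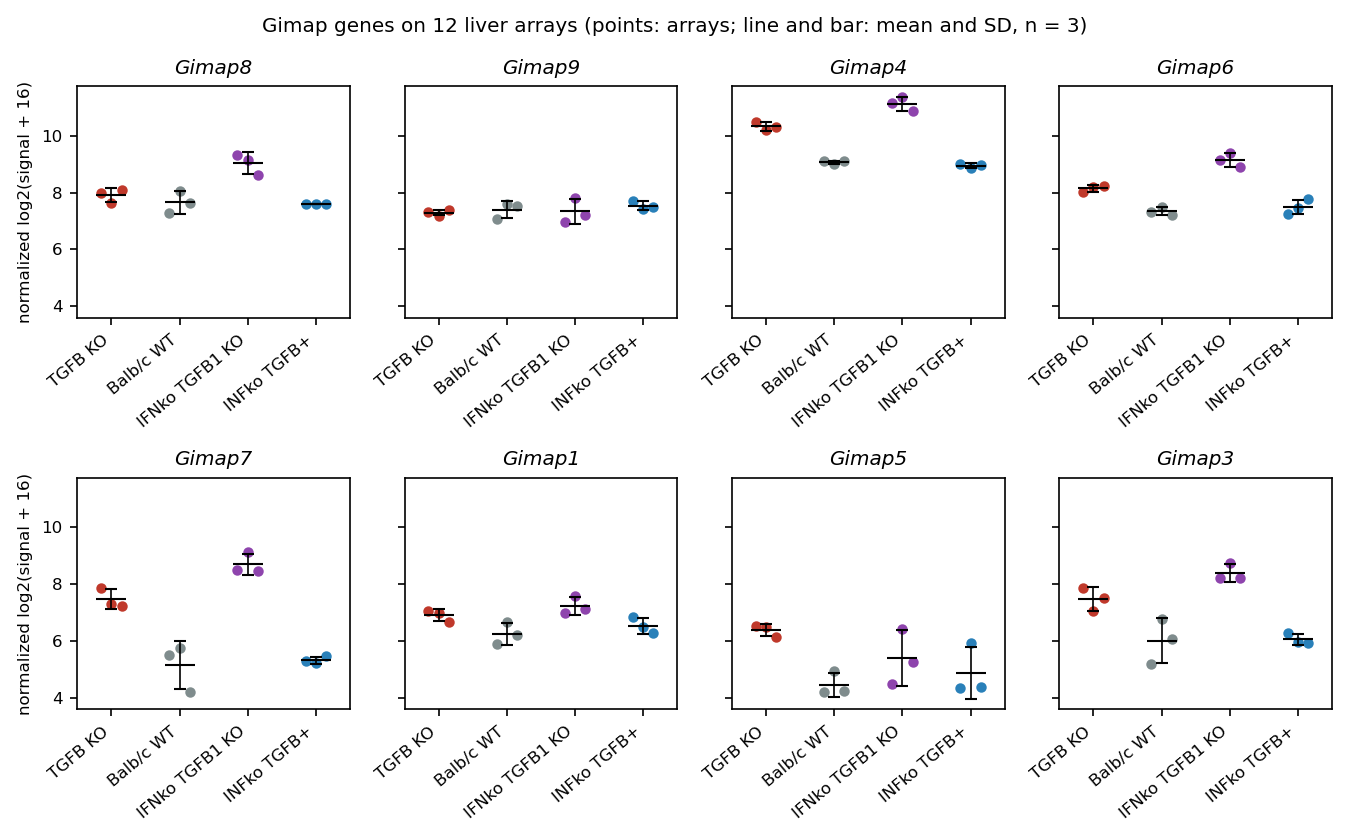
Normalized log2(signal + 16) of the 8 Gimap genes on each array, in the order of the genes along chromosome 6, with 1 panel per gene. Points are the 3 arrays of a group, and the line and bar are the mean and SD. Gimap4, Gimap6, Gimap7 and Gimap3 are higher in both groups without Tgfb1 than in their controls with no overlap. Gimap9 overlaps in every pair of groups that was compared.

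Gimap7, whose human counterpart stimulates the GTPase activity of another family member, was higher in both comparisons of Tgfb1 loss. Its signal was 224, 143 and 133 in TGFB KO livers, against 34.2, 37.7 and 1.89 in Balb/c WT livers. The IFNko TGFB1 KO livers had 330, 545 and 341, against 21.3, 18.0 and 24.9 in INFko TGFB+ livers. Neither pair of groups overlapped, and Balb/c WT 3 was far below the other arrays of its group. The log2 fold change was 2.31 ± 0.36 (SE; adjusted p = 0.000865) in TGFB KO against Balb/c WT. It was 3.37 ± 0.36 (adjusted p = 0.000107) in IFNko TGFB1 KO against INFko TGFB+. The control livers lie near the bottom of the scale, so these sizes depend on the pseudocount: with 1 in place of 16 they were 3.37 and 4.01, and with 64 they were 1.39 and 2.39. In TGFB KO against Balb/c WT its rank against Gimap5 (1.93 ± 0.50) depends on the scale, since the mean signals were 167 against 24.6 for Gimap7 and 65.8 against 6.61 for Gimap5, the larger ratio being that of Gimap5. With the probe sets of a gene averaged, the log2 fold changes were 1.70 for Gimap7 and 1.93 for Gimap5. A second Gimap7 probe set, too dim for the filter, had log2 fold changes of 1.09 and 1.80 in the same comparisons.

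Gimap4, which in mice speeds the death of T cells once apoptosis has begun, had the smallest SE of the 8. It had signals of 1426, 1163 and 1256 in TGFB KO livers, against 528, 499 and 539 in Balb/c WT livers. For IFNko TGFB1 KO livers the signals were 1903, 2353 and 1851, against 502, 454 and 487 in INFko TGFB+ livers. Every array without Tgfb1 was above every array with it. The log2 fold change was 1.26 ± 0.16 (adjusted p = 0.00028) in TGFB KO against Balb/c WT and 2.18 ± 0.16 (adjusted p = 1.33e-05) in IFNko TGFB1 KO against INFko TGFB+. Its probe set is of a kind that can match several transcripts. A second Gimap4 probe set, with log2 fold changes of 1.01 and 1.49, moved the same way.

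Gimap3, a paralog of Gimap5 that in mice also influences which mitochondrial DNA is kept in blood cells, was higher in both pairs. Its signal was 225, 117 and 165 in TGFB KO livers, against 24.0, 85.8 and 47.7 in Balb/c WT livers. The IFNko TGFB1 KO livers gave 279, 427 and 280, against 58.1, 40.8 and 41.6 in INFko TGFB+ livers. Groups did not overlap in either pair, though the Balb/c WT livers spread widely. The log2 fold changes were 1.47 ± 0.36 (adjusted p = 0.0115) in TGFB KO against Balb/c WT and 2.34 ± 0.36 (adjusted p = 0.00088) in IFNko TGFB1 KO against INFko TGFB+. Without TGFB KO 1 the first of these missed the threshold, at an adjusted p of 0.0515, where its alternatives ran from 0.00306 to 0.0515.

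Gimap6, linked to autophagy through its binding of an Atg8-like protein, was higher in both groups without Tgfb1. Its signal was 245, 281 and 292 in TGFB KO livers, against 139, 157 and 126 in Balb/c WT livers. It was 500, 662 and 460 in IFNko TGFB1 KO livers, against 130, 155 and 193 in INFko TGFB+ livers. The groups were apart in both pairs. The log2 fold change was 0.80 ± 0.19 (adjusted p = 0.00989) in TGFB KO against Balb/c WT and 1.65 ± 0.19 (adjusted p = 0.000173) in IFNko TGFB1 KO against INFko TGFB+. A second, dimmer Gimap6 probe set had log2 fold changes of 1.02 and 0.70 in these comparisons, a different order of sizes.

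Gimap8, the largest protein of the family, which has several GTPase domains, passed the test in the livers without Ifng. Its signal was 241, 189 and 262 in TGFB KO livers, against 135, 244 and 175 in Balb/c WT livers, and these groups overlapped. It was 565, 561 and 379 in IFNko TGFB1 KO livers, against 171, 174 and 170 in INFko TGFB+ livers, with a wide gap between the groups. The log2 fold change was 0.25 ± 0.24 (adjusted p = 0.496) in TGFB KO against Balb/c WT and 1.44 ± 0.24 (adjusted p = 0.00151) in IFNko TGFB1 KO against INFko TGFB+. The difference between these 2 effects, 1.18 ± 0.34, had an unadjusted p of 0.00472 and an adjusted p of 0.171.

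Gimap5, needed for the survival of peripheral T cells in mice, was measured near the bottom of the scale. Its signal was 75.1, 71.7 and 50.7 in TGFB KO livers, against 2.43, 14.96 and 2.44 in Balb/c WT livers. Signals were 13.4, 76.3 and 20.8 in IFNko TGFB1 KO livers, against 3.57, 40.7 and 3.59 in INFko TGFB+ livers. The TGFB KO livers were above all Balb/c WT livers, while in the other pair the groups overlapped and 1 array of each stood high. The log2 fold change was 1.93 ± 0.50 (adjusted p = 0.0164) in TGFB KO against Balb/c WT and 0.51 ± 0.50 (adjusted p = 0.493) in IFNko TGFB1 KO against INFko TGFB+. In the second comparison the value turned on single arrays, at 0.24 without INFko TGFB+ 1, 0.257 without INFko TGFB+ 3 and 0.965 without IFNko TGFB1 KO 1, and it was 0.224 with a pseudocount of 64 (adjusted p over the alternatives 0.189 to 0.809). The gene passed the filter through the arrays in which it was high. Without any 1 of the 3 TGFB KO arrays, without IFNko TGFB1 KO 2 or without INFko TGFB+ 2 it fell under the filter and was not tested, nor was it with a pseudocount of 1 or a filter at the 60th percentile. Without Balb/c WT 1 or Balb/c WT 3 its adjusted p was 0.055 or 0.0518 (range over the alternatives that tested it 0.00194 to 0.055), and with a pseudocount of 64 its log2 fold change was 0.90. Detection calls were not analysed here, so whether signals this low lie above background is unknown.

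Gimap1, required for mature T and B cells in mice, was close to the threshold in both pairs. Its signal was 117, 112 and 84.3 in TGFB KO livers, against 47.2, 78.3 and 53.5 in Balb/c WT livers. It was 133, 193 and 127 in IFNko TGFB1 KO livers, against 93.3, 68.0 and 57.5 in INFko TGFB+ livers. Groups did not overlap in either pair. The log2 fold changes, 0.66 ± 0.24 (adjusted p = 0.0703) and 0.70 ± 0.24 (adjusted p = 0.0522) for TGFB KO against Balb/c WT and IFNko TGFB1 KO against INFko TGFB+, did not pass. The first passed under 2 of 15 alternatives, whose adjusted p ran from 0.0334 to 0.22, and the second under 6 of 15, with 0.0125 to 0.174.

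Gimap9 stood out by its lack of a detectable change. Its only probe set is annotated to a sequence that is not a RefSeq transcript of the gene. The same holds for every other member but Gimap1 and Gimap3, and whether it limits this probe set was not tested. The values below are those of Gimap9. Signals were 145, 131 and 152 in TGFB KO livers, against 116, 168 and 161 in Balb/c WT livers. They were 134, 230 and 135 in IFNko TGFB1 KO livers, against 187, 148 and 155 in INFko TGFB+ livers. All 4 groups overlapped in signal. On the normalized log2 scale the TGFB KO livers (at most 7.39) lay just under the INFko TGFB+ livers (at least 7.41), a pair not compared here. The log2 fold change was -0.10 (95% interval -0.60 to 0.39, adjusted p = 0.787) in TGFB KO against Balb/c WT and -0.19 (-0.69 to 0.31, adjusted p = 0.583) in IFNko TGFB1 KO against INFko TGFB+. These intervals leave out the log2 fold changes of its neighbour Gimap4 in the same comparisons. Those of its other neighbour Gimap8 lie inside the first interval (0.25) and outside the second (1.44).

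**Figure D2:**
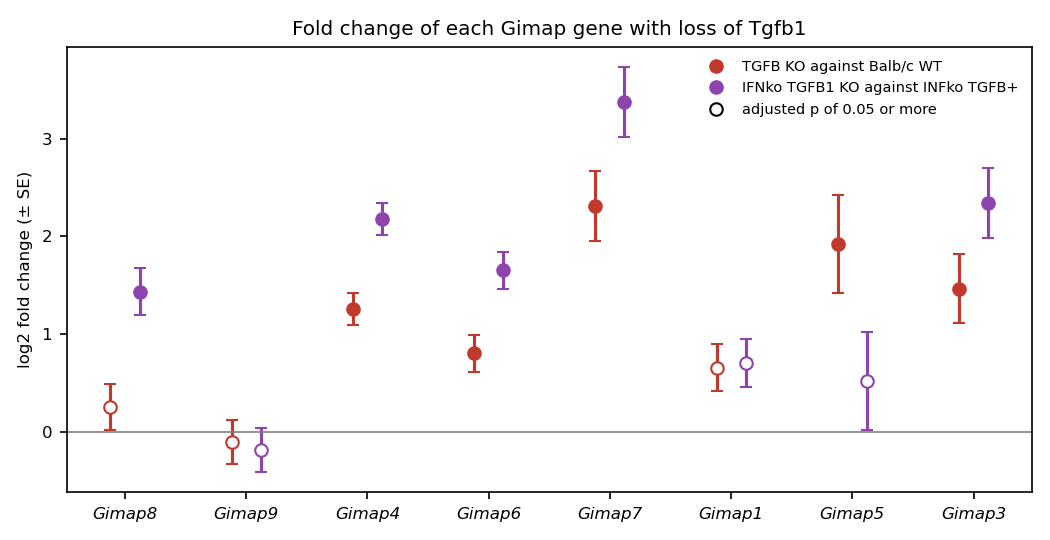
Log2 fold change (± SE) of each Gimap gene, in chromosome order, for TGFB KO against Balb/c WT and for IFNko TGFB1 KO against INFko TGFB+. Filled points have a limma adjusted p under 0.05 and open points do not. On this scale Gimap7 has 2.31 and 3.37, the first within the error bars of Gimap5 (1.93), and Gimap9 lies just under 0 in both.

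The contribution of Ifng was addressed by comparing the groups that lacked it with those that had it. In IFNko TGFB1 KO livers 3 of the 8 genes (Gimap4, Gimap6 and Gimap8) were higher than in TGFB KO livers and 0 were lower, where 2.54% of all genes were higher and 2.82% lower. The median log2 fold change of the 8 was 0.86, against 0.025 for all genes. Gimap4 had a log2 fold change of 0.80 ± 0.16 (adjusted p = 0.0174), Gimap6 1.00 ± 0.19 (adjusted p = 0.0117) and Gimap8 1.13 ± 0.24 (adjusted p = 0.0205). Gimap7 had 1.23 ± 0.36 (adjusted p = 0.0757) and Gimap3 0.92 ± 0.36 (adjusted p = 0.168), both without overlap between the groups but short of the threshold. Gimap5 was the exception in sign, at -0.99 ± 0.50 (adjusted p = 0.287). The 3 calls were lost when only these 6 arrays were fitted or when arrays were centred on their medians, which gave 0 calls each. When the probe sets of each gene were averaged, Gimap4 and Gimap6 lost their calls and Gimap7 gained one, leaving 2. Without IFNko TGFB1 KO 1 or TGFB KO 2 only Gimap6 passed, and without TGFB KO 1 only Gimap4 did. The second probe sets of Gimap4 and Gimap6 had log2 fold changes of 0.20 and 0.23 in this comparison, well under those of the chosen ones.

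The test of the difference itself, the effect of Tgfb1 loss without Ifng minus that with Ifng, called 0 of the 8 genes by limma, where 0.243% of all genes were higher and 0.627% lower. Gimap4, Gimap6 and Gimap8 had an unadjusted p under 0.05, as did 1510 of all 12755 genes. The log2 difference was 0.93 ± 0.23 (adjusted p = 0.113) for Gimap4 and 0.85 ± 0.27 (adjusted p = 0.22) for Gimap6. It was -1.41 ± 0.71 (adjusted p = 0.472) for Gimap5, and the median of the 8 was 0.86, against 0.0099 for all genes. Gimap4 passed when IFNko TGFB1 KO 3 was left out, with an adjusted p that rounds to 0.05. In INFko TGFB+ against Balb/c WT, loss of Ifng with Tgfb1 present, 0 of the 8 were called and 0% of all genes, with 0 of the 8 and 649 of all genes at an unadjusted p under 0.05. The members' log2 fold changes there lay between -0.13 and 0.42. These comparisons share arrays with those above and are not independent of them.

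By mean normalized log2 level the order of the levels was IFNko TGFB1 KO first and TGFB KO second for Gimap1, Gimap3, Gimap4, Gimap6, Gimap7 and Gimap8. IFNko TGFB1 KO and TGFB KO livers overlapped for Gimap1 of these, and TGFB KO and Balb/c WT livers for Gimap8. INFko TGFB+ and Balb/c WT livers overlapped for all 8 members. The share of all tested genes with or without overlap was not counted, so overlap here only describes the values. Gimap5 was highest in TGFB KO livers, with IFNko TGFB1 KO second, and Gimap9 had its highest mean normalized log2 level in INFko TGFB+ livers, though its mean signal was highest in IFNko TGFB1 KO livers (166 against 163). Within IFNko TGFB1 KO, array 2 was above the group mean for all 8 genes, by 0.41 on average on the log2 scale, and array 3 for 0 of them. Balb/c WT 2 was above its group mean for 7 of 8, and so was TGFB KO 1. Counts over the 8 genes are therefore not counts of independent observations.

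T cell markers, averaged per array, had the same order of groups. That order was not particular to them. Neutrophil markers and the resting lymphocyte genes listed below had it too, though their IFNko TGFB1 KO and TGFB KO arrays overlapped. NK cell markers had the same first and second group. Of 16 listed T cell markers 14 were tested, and 12 were higher in TGFB KO than in Balb/c WT livers, with a median log2 fold change of 1.61. All 14 were higher in IFNko TGFB1 KO against INFko TGFB+, with a median of 2.43. Cd3g, a chain of the T cell receptor complex, had log2 fold changes of 2.13 ± 0.28 (adjusted p = 0.000299) in TGFB KO against Balb/c WT and 4.14 ± 0.28 (adjusted p = 6.99e-06) in IFNko TGFB1 KO against INFko TGFB+. Cd2, an adhesion receptor of T and NK cells, had 2.04 and 3.71, and Cd8b1, a coreceptor chain of cytotoxic T cells, 1.5 and 3.14. Cd2 and Cd8b1 passed the filter on dim probe sets only through the livers without Tgfb1. In Balb/c WT and INFko TGFB+ livers their mean log2 levels, 4.59 and 5.05 for Cd2 and 4.58 and 4.35 for Cd8b1, lay under it. The filter left out none of the 14 markers with a probe set. Of the 14, 7 were higher in IFNko TGFB1 KO against TGFB KO, with a median of 1.26, and the difference of the effects was called for Cd3g alone (2.01 ± 0.40, adjusted p = 0.0415). Summed over the 14 genes, the signal was 1308 to 1655 in TGFB KO livers, 327 to 458 in Balb/c WT livers, 3298 to 5696 in IFNko TGFB1 KO livers and 332 to 542 in INFko TGFB+ livers. The summed signal of the 8 Gimap genes was 2209 to 2697, 1025 to 1286, 3593 to 5047 and 1099 to 1166 in the same groups. The part of T cell number in the Gimap values was not tested.

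**Figure D3:**
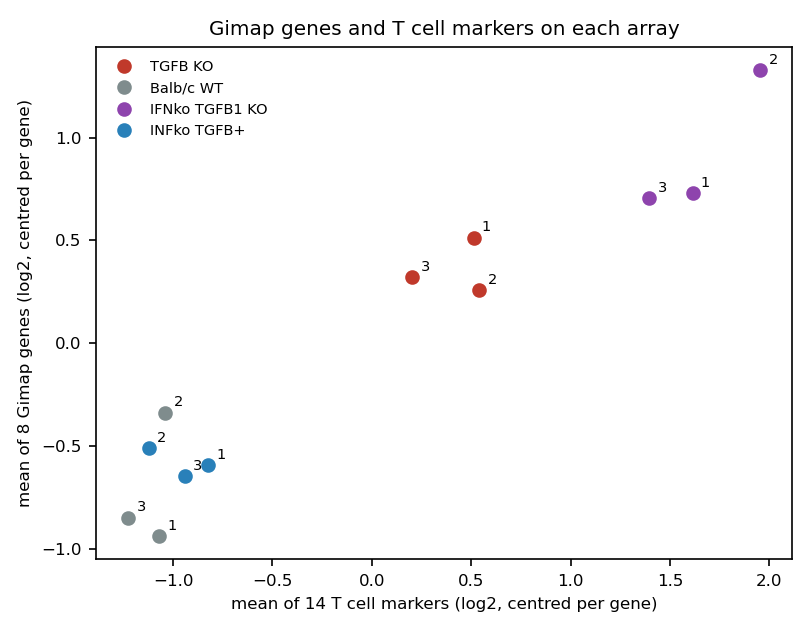
Mean of the 8 Gimap genes against the mean of 14 T cell markers on each of the 12 arrays, both in log2 centred per gene; numbers are replicates. The 3 TGFB KO arrays (Gimap means 0.26 to 0.51) lie above the 6 controls (at most -0.34), and the 3 IFNko TGFB1 KO arrays (0.71 to 1.33) lie above both. The points share arrays and normalization, so no correlation was tested.

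Markers of other cells also differed between the groups. All 12 macrophage markers were higher in both comparisons, with median log2 fold changes of 2.48 in TGFB KO against Balb/c WT and 2.31 in IFNko TGFB1 KO against INFko TGFB+. Their summed signal was 48160 to 51899 in TGFB KO, 8173 to 10376 in Balb/c WT, 33940 to 47955 in IFNko TGFB1 KO and 8175 to 8345 in INFko TGFB+ livers. In IFNko TGFB1 KO against TGFB KO limma called 0 of the 12 macrophage markers, whose median log2 fold change was -0.35. There 6 of the 12 had an unadjusted p under 0.05, as did 2635 of all 12755 genes. Of 8 NK cell markers 7 had a probe set (not Klrb1c) and 4 were bright enough to test, with Ncr1, Klra8 and Klre1 too dim. Of these 4, 3 were higher in TGFB KO livers and 4 in IFNko TGFB1 KO livers than in their controls. Over the 7, the summed signal was 418 to 585 in TGFB KO, 151 to 188 in Balb/c WT, 563 to 809 in IFNko TGFB1 KO and 114 to 159 in INFko TGFB+ livers. Of 9 B cell markers tested limma called 0 in TGFB KO against Balb/c WT, where their median log2 fold change was -0.56. There 3 of the 9 had an unadjusted p under 0.05, as did 4612 of all 12755 genes. Of the 9, 1 (Cd22) was higher in IFNko TGFB1 KO against INFko TGFB+ (1.21 ± 0.39, adjusted p = 0.0415). Their summed signal was 385 to 484 in TGFB KO and 394 to 826 in Balb/c WT livers, and 685 to 1529 in IFNko TGFB1 KO and 501 to 618 in INFko TGFB+ livers. Of 12 endothelial markers 3 were higher and 2 lower in TGFB KO livers, and 3 were higher and 0 lower in IFNko TGFB1 KO livers, than in their controls. Their summed signal was 4853 to 6094 in TGFB KO, 4647 to 5315 in Balb/c WT, 5074 to 6931 in IFNko TGFB1 KO and 4773 to 4840 in INFko TGFB+ livers. In IFNko TGFB1 KO against TGFB KO, where Gimap4, Gimap6 and Gimap8 were called, 3 of the 12 endothelial markers were higher as well, but the list's median log2 fold change was -0.12. In the same comparison 1 of 9 B cell markers was higher, with a median of 0.79, and 1 of 4 NK cell markers, with a median of 0.82. Neutrophil markers had 5 of 8 higher in each comparison (Ly6g and Retnlg had no probe set). Their summed signal was 21611 to 33157 in TGFB KO, 6377 to 13049 in Balb/c WT, 19363 to 50935 in IFNko TGFB1 KO and 9113 to 14803 in INFko TGFB+ livers. Of 10 hepatocyte markers 1 was lower in TGFB KO livers and 4 were lower in IFNko TGFB1 KO livers. Their summed signal was 130005 to 156528 in TGFB KO, 174220 to 180205 in Balb/c WT, 94639 to 148850 in IFNko TGFB1 KO and 149823 to 184746 in INFko TGFB+ livers. IFNko TGFB1 KO 2, the array above its group mean for all 8 Gimap genes, had a mean centred log2 level of -0.67 for these markers, where replicates 1 and 3 had -0.062 and -0.017. The part of these cells in the Gimap values was not tested.

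Genes of resting lymphocytes, the state in which several Gimap genes are known to be most expressed, did not move as one. Of 12 listed genes 8 were tested (Ccr7 and Lef1 were too dim), and 2 were higher and 1 lower in TGFB KO against Balb/c WT. In the pair without Ifng, IFNko TGFB1 KO against INFko TGFB+, 3 were higher and 2 lower. Over all genes 12.2% were higher and 11.9% lower in the first comparison, and 12.7% and 13.1% in the second. The 1 lower gene of the first comparison is near that share. Satb1, a chromatin organizer of T cells, changed by 1.39 ± 0.41 on the log2 scale (adjusted p = 0.0289) and by 2.22 ± 0.41 (adjusted p = 0.00249) in these comparisons. Bach2, a repressor that holds lymphocytes back from effector fates, was lower in both, at -1.42 ± 0.23 (adjusted p = 0.00124) and -1.05 ± 0.23 (adjusted p = 0.00667). Klf2, a factor for lymphocyte quiescence that endothelium also expresses, had 0.52 (adjusted p = 0.264) and 1.08 (adjusted p = 0.0254).

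The Bcl2 family, to which Gimap3 and Gimap5 proteins bind, had 11 of 13 listed genes on the array (not Bcl2a1a or Bax). Of these 6 were higher and 2 lower in TGFB KO against Balb/c WT, and 4 higher and 2 lower in IFNko TGFB1 KO against INFko TGFB+, with median log2 fold changes of 0.72 and 0.40. The shares over all genes were 12.2% higher and 11.9% lower in the first comparison, and 12.7% and 13.1% in the second. Pmaip1 (Noxa), a BH3-only protein that promotes apoptosis, changed by 2.91 ± 0.33 on the log2 scale (adjusted p = 0.000102) and by 2.27 ± 0.33 (adjusted p = 0.000675). Its mean log2 levels in Balb/c WT (4.84) and INFko TGFB+ livers (4.87) lay under the filter on dim probe sets. Pmaip1 therefore passed that filter only through the livers without Tgfb1. Mcl1, which protects cells from apoptosis, had 1.25 and 1.06, and its killing partners Bid (1.37 and 0.87) and Bcl2l11 (Bim, 0.97 and 1.00) were higher too, each at an adjusted p of 0.0084 or less. In IFNko TGFB1 KO against TGFB KO limma called 0 of the 11, whose median log2 fold change was -0.37. There 3 of the 11 had an unadjusted p under 0.05, as did 2635 of all 12755 genes.

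Interferon-inducible GTPases, another family of immune GTP-binding proteins, were lower in IFNko TGFB1 KO than in TGFB KO livers. All 10 of 14 listed genes with a probe set (not Gbp4, Gbp5, Gbp9 or Tgtp1) were higher in TGFB KO than in Balb/c WT livers, with a median log2 fold change of 2.67. Against INFko TGFB+ livers, 2 were higher and 5 lower in IFNko TGFB1 KO livers, with a median of -0.49. The difference of the effects was called as lower for 9 of 10, with a median of -3.21, against 0.86 for the Gimap genes. Gbp2, a guanylate-binding protein induced by interferon gamma, had a difference of -3.42 ± 0.26 (adjusted p = 0.000123), and Igtp, an immunity-related GTPase, one of -3.72 ± 0.30 (adjusted p = 0.000123). Between IFNko TGFB1 KO and TGFB KO livers all 10 were called as lower, where 0 of the 8 Gimap genes were. In INFko TGFB+ against Balb/c WT limma called 0 of the 10, with 4 at an unadjusted p under 0.05, as were 649 of all 12755 genes.

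**Figure D4:**
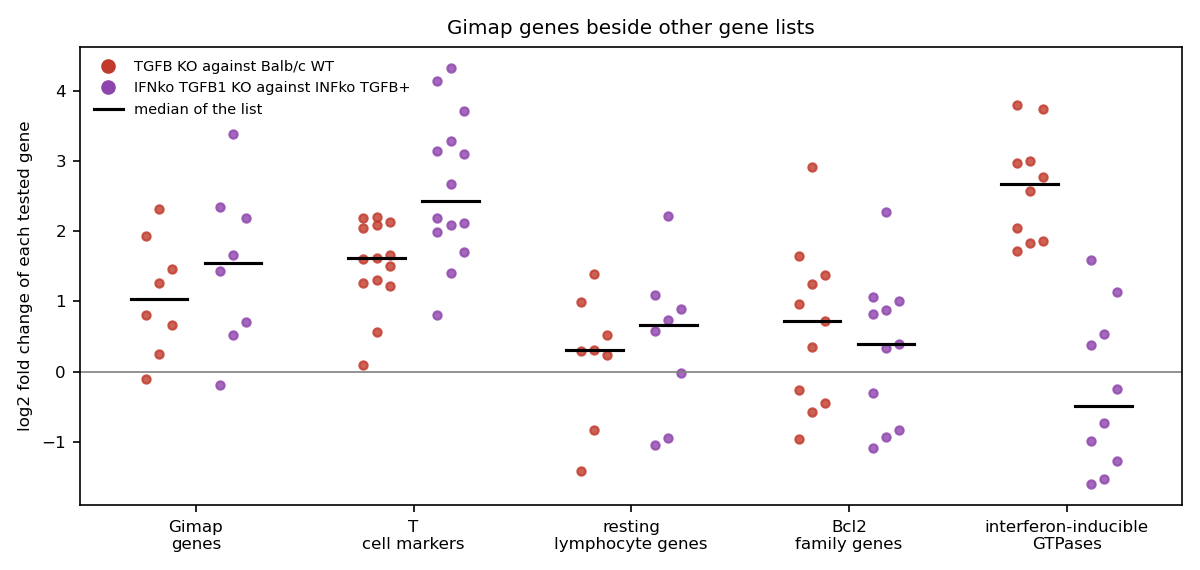
Log2 fold change of each tested gene in 5 lists, with TGFB KO against Balb/c WT on the left of each pair and IFNko TGFB1 KO against INFko TGFB+ on the right. The black line is the list's median, 1.03 and 1.54 for Gimap genes, 1.61 and 2.43 for T cell markers, and 2.67 and -0.49 for interferon-inducible GTPases.

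Genes just outside the Gimap cluster did not follow it as a block. Tmem176b, the first gene past Gimap3, a membrane protein of myeloid cells, had log2 fold changes of 0.40 ± 0.13 (adjusted p = 0.0473) in TGFB KO against Balb/c WT and 0.65 ± 0.13 (adjusted p = 0.00418) in IFNko TGFB1 KO against INFko TGFB+. Its neighbour Tmem176a had 0.11 (adjusted p = 0.722) and 0.54 (adjusted p = 0.0585). On the Gimap8 side, Zfp775 had -0.56 (adjusted p = 0.208) and -0.84 (adjusted p = 0.0617), and Repin1, a zinc finger protein, -0.39 (adjusted p = 0.326) and -1.12 ± 0.27 (adjusted p = 0.00964). AI854703 and Aoc1, the remaining neighbours, were too dim to test.

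The genes whose 12 array values lay nearest to the mean pattern of the 8 Gimap genes were sought among the other 12747 tested genes by the root mean square difference of centred log2 values. The nearest were Oxct1 (0.175), Arhgap15 (0.176), Rpsa (0.178), Adam17 (0.201), Tubb5 (0.205) and Selp (0.207), over 12 arrays. Each was nearer to the family's mean than any member was: Gimap6 lay at 0.25 and Gimap4 at 0.31, with Gimap5 (0.72), Gimap9 (0.75) and Gimap7 (0.88) farthest.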

How the data were processed

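Total RNA from 12 mouse livers was extracted with Trizol and labelled with biotin, per the labels' protocols. The table deposited by the authors holds a linear intensity for each probe set. From the values, all arrays share a trimmed mean of 150.001, a scaling made before deposit. How signals were computed is not given in the sources used here. After log2(signal + 16) the medians of the arrays spanned 0.634, over a limit of 0.5, so values were quantile normalized. Of 45101 probe sets, 34958 carried a single symbol, 932 several and 9211 none; 34754 single symbols were updated through RefSeq's gene table. Each gene was represented by its brightest probe set, and genes whose probe set had a mean under the 40th percentile of all 45101 probe sets were left out, leaving 12755 of 18193.

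Group means of all 12 arrays were fitted with limma 3.58.1 (R 4.3.3; lmFit, eBayes; residual df 8, prior df 3.44), with Benjamini-Hochberg adjustment over all 12755 genes and a threshold of 0.05, in 5 contrasts. The code was tested on simulated data. The precision is limited by 3 arrays a group. One INFko TGFB+ label is unnumbered, and that mouse was called replicate 1. The members and lists were chosen with earlier results of these data known. The text names all members, up to 4 genes of each list with the smallest p in either comparison of Tgfb1 loss, the 6 genes of nearest pattern, 3 neighbours on each side of the cluster, Tgfb1 and Ifng. Ccr7, Lef1 and other dim or unprobed list members are named for completeness. Alternatives were other scalings, pseudocounts of 1 and 64, other filters, the mean of a gene's probe sets, fits of only the arrays compared, a replicate block and leaving out each array.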

Additional observations from a re-analysis of the deposited data

How the results depend on the processing

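Across the alternatives, 566 of 615 member results kept their direction and their side of the threshold, 17 lost a call, 11 gained one and 21 changed sign. In 5 further cases the call of Gimap5 in TGFB KO against Balb/c WT was lost because it fell under the filter. Of the values that changed sign, none was called. In IFNko TGFB1 KO against TGFB KO the 3 calls became 0 with median centring and 0 with only the arrays compared, and leaving out single arrays gave 1 to 3. Leaving out single arrays gave 3 to 6 calls in TGFB KO against Balb/c WT (3 without TGFB KO 1, which took Gimap5 under the filter) and 0 to 1 for the difference of the effects. Otherwise the causes were not tested.

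With median centring the log2 value was -0.0912 for Gimap1 in the difference of the effects, 0.0476 for Gimap8 in INFko TGFB+ against Balb/c WT, -0.0532 for Gimap9 in IFNko TGFB1 KO against TGFB KO and 0.0372 for Gimap9 in TGFB KO against Balb/c WT. With the deposited scaling it was -0.0323 for Gimap3 in INFko TGFB+ against Balb/c WT and 0.0253 for Gimap9 in the difference, and with a pseudocount of 64 it was -0.00758 for Gimap3 in INFko TGFB+ against Balb/c WT. Leaving out single arrays, the difference ranged from -0.161 to 0.226 for Gimap1 and from -0.326 to 0.097 for Gimap9. The fold change in INFko TGFB+ against Balb/c WT ranged from -0.377 to 0.432 for Gimap3, -0.312 to 0.466 for Gimap7, -0.247 to 0.147 for Gimap8 and -0.0348 to 0.223 for Gimap9, and that of Gimap9 in IFNko TGFB1 KO against TGFB KO from -0.197 to 0.229.

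Median centring moved the median of all genes to -0.14 in IFNko TGFB1 KO against TGFB KO, -0.15 in IFNko TGFB1 KO against INFko TGFB+, -0.25 in the difference and 0.10 in INFko TGFB+ against Balb/c WT, so member values under it are to be read against those. It called 1449 as higher and 894 as lower over the whole array in TGFB KO against Balb/c WT (1553 and 1524 before) and 988 and 1866 in IFNko TGFB1 KO against INFko TGFB+ (1619 and 1673 before). For IFNko TGFB1 KO against TGFB KO it gave 100 and 388, and only the arrays compared gave 65 and 148 (324 and 360 before).

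With the replicate number as a block the members called were 5 in TGFB KO against Balb/c WT, 6 in IFNko TGFB1 KO against INFko TGFB+ (with Gimap1), 3 in IFNko TGFB1 KO against TGFB KO and 0 in the others. Arrays of one number correlated in their deviations at 0.0975, 0.065 and 0.343 in the first pair, with 3 of 6 arrays closest to their own number, so the numbers were not taken as a pairing. Low signal limits Gimap5 and the control values of Gimap7.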
